A study of Mus musculus with 7 samples.

Results

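Islet endocrine cells carry cell-surface receptors through which gut hormones, fatty acids and nerve signals adjust hormone release. The 8 receptor genes described here were chosen by name: Glp1r, Gipr, Gcgr, Ffar1, Galr1, Adra2a, Chrm3 and P2ry1. A probe set that the platform annotation gives to a single gene was found for 7 of them, among 22180 genes measured in the same way. Adra2a, an adrenergic receptor, is not analysed here. The 7 genes had 1 probe set each, and none was filtered out for low signal.

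Expression was measured on 7 whole-transcript microarrays of collagenase-isolated mouse islets. The 3 control arrays came from Gata6 flox/flox mice without Cre. The 4 arrays labelled Gata6 KO came from Gata6 flox/flox;Pdx1-Cre mice, in which the Pdx1 promoter drives Cre in the pancreatic epithelium and so in more than the endocrine cells. All mice carried the floxed alleles and were 2 months old, each array held islets pooled from 3 mice, and an effect of Cre alone cannot be told apart from 1 of Gata6 in this design. The labels do not say whether the pools were prepared separately, so p-values measure the spread between these pools.

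As background, Glp1r, Gipr and Gcgr are class B receptors for the peptides GLP-1, GIP and glucagon. They couple mainly to the stimulatory G protein Gs, which raises cyclic AMP and thereby amplifies glucose-stimulated insulin secretion. Ffar1 binds long-chain fatty acids, Chrm3 binds acetylcholine released by parasympathetic nerves, and P2ry1 binds ADP. These 3 couple mainly to Gq, which activates phospholipase C and releases stored calcium. Galr1, a receptor for the neuropeptide galanin, couples to the inhibitory Gi/o proteins, which lower cyclic AMP.

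Values are log2 signals, on which 1 unit is a doubling, and medians over all genes ran from 2.23 to 2.26 in the controls, against 2.38 to 2.57 in the other group. The median difference of all genes was 0.17, so differences below are log2 differences, arrays labelled Gata6 KO minus control, less this shift. The SE and every p belong to the unshifted difference. A rise therefore carries the p of a larger difference than the one printed, and a fall that of a smaller one. Gata6 itself was not lower in the labelled knockout (4.74 ± 0.12, SD, n = 3, against 5.28 ± 0.18, SD, n = 4). The probe positions and floxed exons are not given in the sources used here, so this probe set may lie outside the deleted part, and directions are those of the labels. Xist, the RNA of the inactive X chromosome, was low on control array 3 (1.34) and on the array labelled Gata6 KO 3 (2.15) and between 5.02 and 5.60 on the other 5.

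Markers of islet cell types moved with the labels. The mean of 14 pan-endocrine genes (granins, prohormone processing enzymes and endocrine transcription factors) ran from 7.04 to 7.49 in the controls. On the arrays labelled Gata6 KO it lay between 3.91 and 5.34, and the array labelled Gata6 KO 3 was the lowest. Of these genes 13 fell, as did the beta-cell genes (10 of 10), the alpha-cell genes (4 of 5) and the delta and PP cell genes (4 of 5). Beside these marker counts, 7.36% of all genes were called lower and 17.4% higher by the test described below. The mean of 15 acinar genes, markers of the enzyme-secreting exocrine cells, ran from 10.20 to 10.30 in the controls, against 11.04 to 11.20 in the other group, and 9 of the 15 rose. Their part in the receptor differences was not tested. In bulk islet RNA, fewer cells of a type and less RNA per cell cannot be told apart.

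The sequences just before the annotated gene starts of Glp1r and P2ry1 are shown as examples. Both genes fell on the arrays labelled Gata6 KO and their gene models begin at a transcript start. Chrm3 also fell and its window was searched, but its sequence is not printed. RefSeq (GRCm38.p6) gave such a window for 5 of the receptor genes: Glp1r, Gcgr, Adra2a, Chrm3 and P2ry1. The window listed for Ffar1 was left out, because the Ffar1 gene model of 903 bases holds coding sequence alone. Windows ran from 250 bases before the start to 50 after it. The 250 bases before each start, written 5′ to 3′ on the gene's own strand, were as follows. Glp1r lies on the plus strand, with the window at chr17:30901617-30901866, and P2ry1 on the plus strand, at chr3:61002535-61002784.
Glp1r: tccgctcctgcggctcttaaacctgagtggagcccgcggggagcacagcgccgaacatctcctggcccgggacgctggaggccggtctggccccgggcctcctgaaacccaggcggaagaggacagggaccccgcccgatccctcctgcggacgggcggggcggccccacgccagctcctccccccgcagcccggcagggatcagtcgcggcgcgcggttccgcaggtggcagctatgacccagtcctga
P2ry1: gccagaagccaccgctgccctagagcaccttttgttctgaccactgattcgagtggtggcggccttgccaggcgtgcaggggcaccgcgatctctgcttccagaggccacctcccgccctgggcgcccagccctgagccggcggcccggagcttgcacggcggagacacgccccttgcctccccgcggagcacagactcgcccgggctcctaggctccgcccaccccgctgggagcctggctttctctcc
These stretches were rich in G and C, with 73.2% for Glp1r and 70.8% for P2ry1, against a median of 52.4% over the same 250 bases of all 32851 windows. Their letters are all in lower case because the motif searched for was not found. The GATA factor motif, searched on both strands as the letters AGATAA and the variant AGATAG, and with T in place of the first A as TGATAA and the variant TGATAG, was in 0 of the 5 receptor windows of 300 bases and in 29.8% of all windows. This says only that these letters are not in these windows. Gipr, Ffar1 and Galr1, which also fell, were not searched. Of the genes searched, Gcgr did not pass the test described below and Adra2a is not analysed here.

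Receptor signal was lower on the arrays labelled Gata6 KO for 6 of the 7 genes, and Gcgr did not pass the test. The falls ranged from -1.15 for Chrm3 to -3.29 for Galr1. By limma, at a threshold of 0.05 on p adjusted over the whole table (Benjamini-Hochberg), 24.7% of all genes were called, 7.36% as lower and 17.4% as higher. The groups did not overlap for the same 6 receptors, whereas 34.3% of all genes had groups without overlap, 9.96% with lower and 24.4% with higher values in the labelled knockout. The exact two-sided permutation test of single genes cannot give a p below 0.0286 with 3 and 4 arrays.

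**Figure D1:**
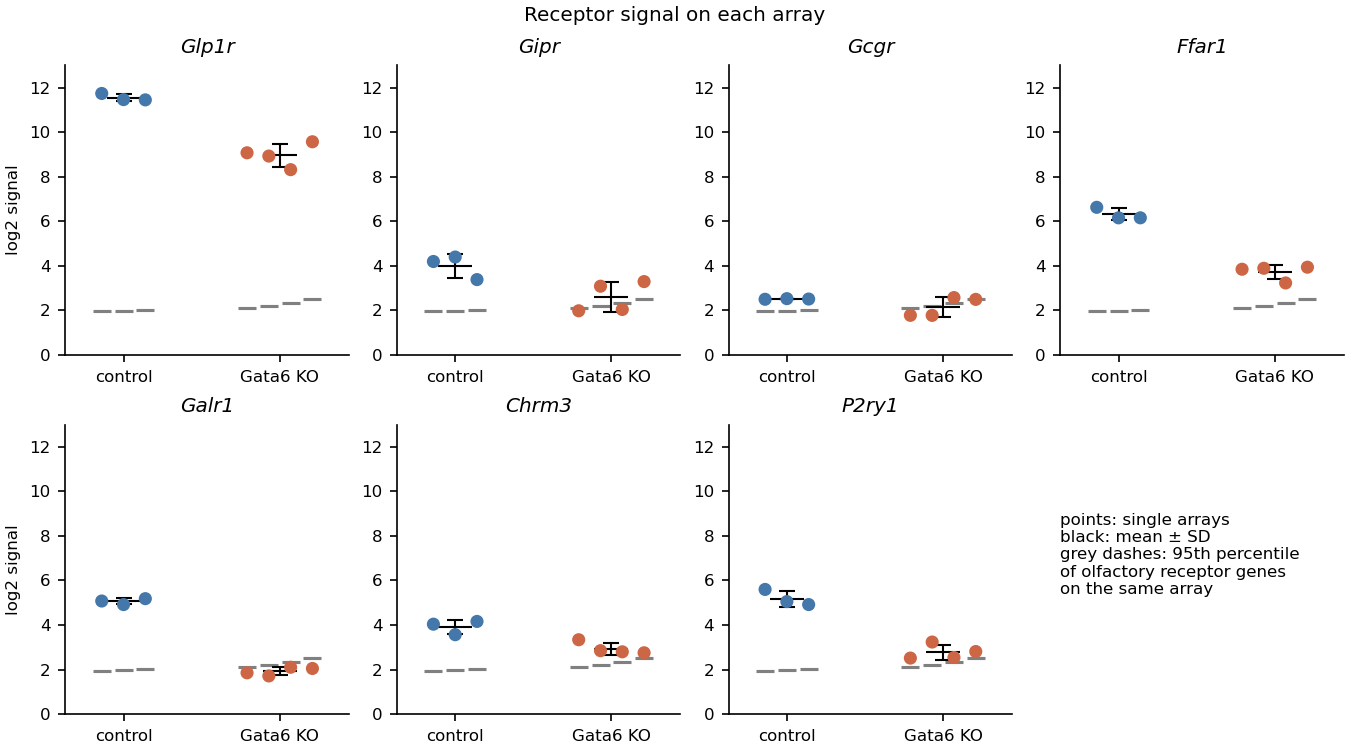
Log2 signal of 7 receptor genes (y axis) on each of 3 control and 4 Gata6 KO arrays (x axis). Points are arrays, black lines the mean ± SD, and grey dashes the 95th percentile of olfactory receptor genes on that array. Galr1 lies under the dashes on all 4 Gata6 KO arrays, and Glp1r lies far above them on all 7 arrays.

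Among the class B receptors, Glp1r fell most. Its signal was 11.73, 11.46 and 11.45 in the controls, against 9.07, 8.92, 8.31 and 9.57 on the arrays labelled Gata6 KO. Every control array lay above every array labelled Gata6 KO, and array 3 of the latter was the lowest. The difference was -2.74 (SE 0.24, limma adjusted p = 9.72e-06), a 6.70-fold fall relative to all genes with a 95% interval from 4.66 to 9.63. The permutation p was 0.0286 (exact, two-sided), the smallest possible.

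Gipr, the receptor of the other incretin, had a lower signal and varied more. It measured 4.19, 4.39 and 3.38 in the controls, against 1.98, 3.08, 2.04 and 3.29 on the arrays labelled Gata6 KO. The groups came close, since control array 3 lay just above arrays 4 and 2 of the other group. Gipr changed by -1.56 relative to all genes (SE 0.34, limma adjusted p = 0.00976), and the exact two-sided permutation test gave p = 0.0571. The call was lost without control array 1 (limma adjusted p = 0.0516) and without control array 2 (limma adjusted p = 0.0603).

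Olfactory receptor genes, of which 1088 were measured and which islets are not known for, served as a reference for low signal. Their 95th percentile ran from 1.95 to 2.01 in the controls, against 2.10 to 2.50 in the other group. Gipr was above it on 3 of 3 control arrays and on 2 of 4 arrays labelled Gata6 KO. Differences of genes near this level are compressed, so the Gipr difference may understate the change.

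Gcgr, the glucagon receptor, showed no difference past the threshold. It measured 2.50, 2.53 and 2.51 in the controls, against 1.78, 1.77, 2.57 and 2.49 on the arrays labelled Gata6 KO. Arrays 3 and 4 of that group matched the controls in deposited signal, and arrays 1 and 2 were lower. The match does not hold against the olfactory reference, which was 2.35 and 2.50 on arrays 3 and 4. In the controls it was 1.95 to 2.01. The difference was -0.52 relative to all genes, with a 95% interval from -1.05 to 0.003. Unshifted it was -0.36 (SE 0.24), and this is the difference that was tested (limma adjusted p = 0.312). Gcgr was above the olfactory reference on 3 control arrays and on 1 array labelled Gata6 KO, so its difference may be compressed at this signal.

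The class B receptors changed by different amounts. The log2 difference between the Glp1r and Gipr signals of the same array changed by -1.19 between the groups (SD 0.50, n = 3, and 0.52, n = 4). That between Glp1r and Gcgr changed by -2.22 (SD 0.17, n = 3, and 0.72, n = 4). Centring of whole arrays cannot alter these differences, but quantile normalization can. After it was repeated, the unshifted group differences were -3.04 for Glp1r, -1.50 for Gipr and -0.57 for Gcgr. These ratios are given as a description with no test, and Gipr and Gcgr were near the olfactory reference on several arrays.

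Of the receptors coupled to Gq, the fatty acid receptor Ffar1 measured 6.62, 6.15 and 6.15 in the controls, against 3.85, 3.89, 3.23 and 3.94 on the arrays labelled Gata6 KO. The groups lay far apart, and array 3 of the latter was again the lowest. Ffar1 changed by -2.75 (SE 0.23, limma adjusted p = 6.50e-06), a 6.73-fold fall with a 95% interval from 4.76 to 9.50. All 7 arrays were above the olfactory reference.

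P2ry1, the ADP receptor, measured 5.60, 5.05 and 4.92 in the controls, against 2.52, 3.24, 2.54 and 2.81 on the arrays labelled Gata6 KO. No array of the latter group came within 1 log2 unit of a control. P2ry1 changed by -2.58 (SE 0.25, limma adjusted p = 1.68e-05), a 5.97-fold fall with a 95% interval from 4.15 to 8.60. Every array was above the olfactory reference, but array 3 labelled Gata6 KO lay near it (2.54 against 2.35), so the difference may be compressed.

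Chrm3, the muscarinic receptor, fell least of the 6. It measured 4.04, 3.57 and 4.16 in the controls, against 3.34, 2.85, 2.80 and 2.75 on the arrays labelled Gata6 KO. Control array 2 and array 1 of the other group came close, and the groups did not overlap. Chrm3 changed by -1.15 (SE 0.23, limma adjusted p = 0.00715), a 2.22-fold fall with a 95% interval from 1.57 to 3.14. On the 5 arrays with high Xist the call was lost (limma adjusted p = 0.0766). Chrm3 is also the receptor through which acetylcholine drives enzyme secretion by acinar cells, whose marker mean was higher on the same arrays.

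Galr1, which couples to Gi/o, had the largest difference of the 7. It measured 5.08, 4.92 and 5.18 in the controls, against 1.86, 1.72, 2.11 and 2.05 on the arrays labelled Gata6 KO. The arrays of each group lay close together, and array 3 was not the lowest here. The difference was -3.29 (SE 0.20, limma adjusted p = 1.24e-06). All 4 arrays labelled Gata6 KO were at or under the olfactory reference, so Galr1 has only a bound there. Set against that reference, the unshifted control mean of 5.06 was at least 6.84-fold higher than the mean of 2.29 that the reference gives, and the measured mean was 1.93.

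The receptors were then set against the pan-endocrine genes, to ask whether they fell more or less than the general endocrine signal. With each array centred on the mean of those 14 genes, Glp1r differed by -0.19 (95% interval -1.06 to 0.68), Ffar1 by -0.20 (-1.04 to 0.65), P2ry1 by -0.026 (-0.92 to 0.87) and Galr1 by -0.74 (-1.67 to 0.18). None of these 4 passed the test on this scale (limma adjusted p from 0.118 to 0.955). The intervals still allow sizeable differences in either direction, so an equal fall is not shown.

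Gipr, Gcgr and Chrm3 differed in the other direction on the pan-endocrine scale. They were higher by 1.00 (SE 0.47, limma adjusted p = 0.0364), 2.03 (SE 0.51, limma adjusted p = 6.76e-05) and 1.40 (SE 0.47, limma adjusted p = 0.00294), since their signals fell less than the pan-endocrine mean. On this scale 21788 of 22180 genes passed, so a call says little about these 3 in particular. Their p-values are also too small, because the spread of the shared reference is treated as known. Their control means were 3.99, 2.51 and 3.92, nearer to the olfactory reference than the pan-endocrine mean of 7.22.

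**Figure D2:**
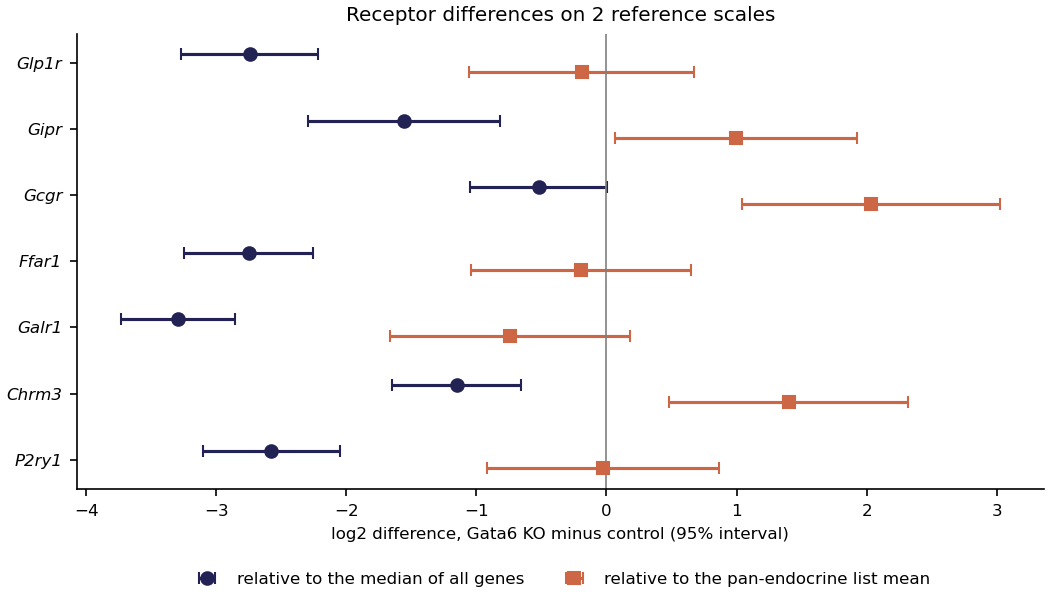
Log2 difference of 7 receptor genes between arrays labelled Gata6 KO and control (x axis), with 95% intervals. Circles are relative to the median of all genes and squares relative to the mean of 14 pan-endocrine genes. Glp1r, Ffar1, Galr1 and P2ry1 are between -2.58 and -3.29 on the first scale and have intervals that span 0 on the second. Intervals on the second scale are too narrow, since all genes share the spread of its reference.

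Within the arrays labelled Gata6 KO, array 3 had the lowest pan-endocrine mean and the lowest Glp1r and Ffar1 signals. Galr1 and Gcgr were highest on that same array, and Gipr, P2ry1 and Chrm3 were next to lowest there. Without array 3 the unshifted differences were -2.36 for Glp1r, -2.42 for Ffar1, -2.33 for P2ry1, -3.19 for Galr1, -1.20 for Gipr and -0.94 for Chrm3, and all 6 still passed limma's test.

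**Figure D3:**
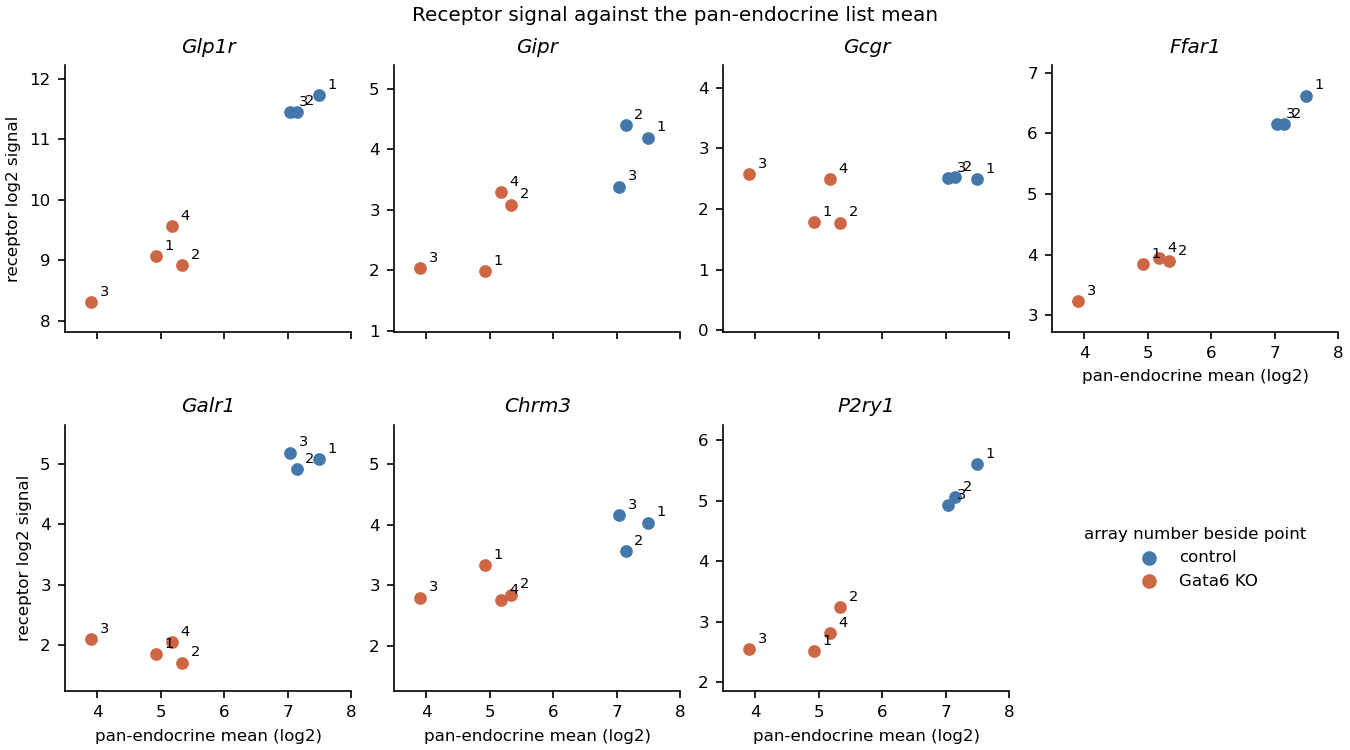
Log2 signal of each receptor gene (y axis) against the mean log2 signal of 14 pan-endocrine genes (x axis) on the 7 arrays, with the array number beside each point. Each y axis spans the same number of log2 units. The control arrays lie at 7.04 to 7.49 on the x axis and the arrays labelled Gata6 KO at 3.91 to 5.34.

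The genes whose pattern over the 7 arrays was most like each receptor were found by Pearson's r among the genes with an SD of at least 0.5, as a description over arrays of 2 groups. For Glp1r these were Aplp1 (r = 0.9985), Hadh (r = 0.9981), a mitochondrial enzyme of fatty acid oxidation, and Fbxl16 (r = 0.9953). For Ffar1 they were the homeobox gene Prox1 (r = 0.9984), Pax6 (r = 0.9983), a transcription factor of endocrine development, and the amino acid transporter Slc38a4 (r = 0.9978). P2ry1 was most like the microtubule protein gene Map1b (r = 0.9991), Unc80 (r = 0.9980) and the gap junction gene Gjd2 (r = 0.9950).

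Galr1 was most like Gm10220 (r = 0.9961), the glucose-responsive transcription factor Mlxipl (r = 0.9956) and Cpeb1 (r = 0.9956), and Chrm3 most like Usp30 (r = 0.9817), Ptpn4 (r = 0.9816) and Setd1b (r = 0.9789). Gipr was closest to Cabp7 and Igfals (r = 0.9761 each) and to Ppp1r26 (r = 0.9741). For Gcgr the closest were Tafa1 (r = 0.9571), 4930571B16Rik (r = 0.9356) and Neu4 (r = 0.9218). An r of at least 0.95 was reached by 444 genes for Ffar1, 379 for Glp1r, 359 for P2ry1, 239 for Galr1, 29 for Chrm3, 12 for Gipr and 1 for Gcgr, so the nearest genes of the first 4 hardly stand apart from many others.

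The ligands of these receptors did not move as a block. Gcg, which encodes glucagon and GLP-1, measured 12.12, 11.99 and 11.82 in the controls, against 10.50, 10.31, 6.85 and 10.55 in the other group, with array 3 far below the rest. It changed by -2.59 relative to all genes (SE 0.66, limma adjusted p = 0.0157), and the call was lost without control array 1 or 2 (limma adjusted p up to 0.0615). Gal, which encodes galanin, measured 7.06, 6.87 and 6.01 in the controls, against 7.65, 7.78, 7.53 and 8.70 in the other group, with no overlap. Gal rose by 1.10 (SE 0.30, limma adjusted p = 0.00752), while its receptor Galr1 fell.

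Dpp4, the protease that inactivates the incretins, changed by -1.09 (SE 0.28, limma adjusted p = 0.0267), a call lost without control array 1, control array 2 or the array labelled Gata6 KO 3 (limma adjusted p up to 0.119). Gip, the incretin gene, differed by 0.60 (SE 0.30, limma adjusted p = 0.0733) and did not pass. Of 21 measured ligand and ligand-handling genes 5 fell and 6 rose, with a median of -0.14, against 7 and 4 after centring on the array median. Entpd3, an ectonucleotidase that breaks down extracellular ATP and ADP, changed by -2.79 (SE 0.23). Th, the rate-limiting enzyme of catecholamine synthesis, and Maob, which degrades monoamines, changed by -2.84 (SE 0.30) and -2.29 (SE 0.32).

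Related receptors were counted in lists chosen with earlier results of these data known. Over the 12 lists 36 genes fell and 30 rose, beside 7.36% of all genes called lower and 17.4% called higher. The number of genes measured is given with each list. This split depended on the scaling. It was 49 lower and 15 higher when every array was centred on its own median, and 48 and 18 after a repeated quantile normalization. Over all 22180 genes 1633 were called lower and 3853 higher. These were 2769 and 1870 after median centring, and 2477 and 2440 after quantile normalization. Counts of the single lists below are to be read beside these shares. Without control array 1 the lists held 28 lower and 15 higher calls. The members, the ligand genes and the list genes named as changed kept their call under the 3 scalings by array median, quantiles and olfactory receptor median, and without each array in turn, unless an exception is given beside them. Some list genes named as lower were near the olfactory reference. Of the arrays labelled Gata6 KO, Chrna3 was above it on 1, and Sstr3, Prkar1b, Rgs16 and Grk5 on 2. Casr, Hcar1, Th, Dpp4, Gnas and Prkar2b were above it on 3. Differences of these genes may be compressed.

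Among 11 measured lipid and nutrient receptors 5 fell and 2 rose, with a median of -0.54. Casr, the calcium-sensing receptor, changed by -2.67 (SE 0.29, limma adjusted p = 5.18e-05), the lactate receptor Hcar1 by -1.18 (SE 0.22) and Gpr119, a Gs-coupled receptor for oleoylethanolamide, by -1.84 (SE 0.39). Gpr119 was not above the olfactory reference on any array labelled Gata6 KO, so its unshifted control mean was at least 2.65-fold higher (measured means 3.69 and 2.02). Of 12 other class B receptors 0 fell and 2 rose by limma, with a median of 0.05, and 1 was lower and 5 higher at an unadjusted p under 0.05. That split turned to 2 lower and 0 higher after centring on the array median and to 2 and 1 after quantile normalization, so the list has no settled direction. Vipr2, a receptor for the neuropeptides VIP and PACAP, rose by 0.75 (SE 0.24, limma adjusted p = 0.0131), a call lost after centring on the array median and without control array 1. Calcrl rose by 0.57 (SE 0.25, limma adjusted p = 0.0425), a call lost under each of the 3 scalings and without 5 of the 7 arrays in turn. The 1 lower at an unadjusted p was Vipr1, another VIP and PACAP receptor, named after its values were seen, which differed by -0.70 (SE 0.22, limma adjusted p = 0.0960) and did not pass on the deposited scale, but was called lower after centring on the array median and after quantile normalization.

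Of 14 measured peptide receptors coupled mainly to Gi, 1 fell and 2 rose, with a median of 0.16, against 2 and 1 after centring on the array median. The somatostatin receptor Sstr3, which had 5.04 ± 0.46 (SD, n = 3) in the controls against 2.66 ± 0.43 (SD, n = 4), changed by -2.54 (SE 0.28). The neuropeptide Y receptor Npy5r rose by 0.87 (SE 0.24) and Sstr2 by 0.62 (SE 0.25), the latter a call lost under each of the 3 scalings and without 4 of the arrays in turn. Of 11 acetylcholine receptor genes 2 fell, with a median of -0.27. These were the nicotinic subunits Chrnb2 and Chrna3, which changed by -2.42 (SE 0.22) and -1.33 (SE 0.19). Chrnb2 was not above the olfactory reference on the arrays labelled Gata6 KO, so its unshifted control mean was at least 2.82-fold higher (measured means 3.78 and 1.53).

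On the deposited scale no purine receptor other than P2ry1 was called lower. Of 14 measured 0 fell and 3 rose by limma, with a median of 0.20, and 1 was lower and 5 higher at an unadjusted p under 0.05. In so short a list the limma counts are near the shares of all genes, 7.36% lower and 17.4% higher. A contrast of P2ry1 with this list was not tested. The 1 lower was P2ry12, an ADP receptor of platelets and microglia, named after its values were seen (-0.85, limma adjusted p = 0.0554, and called lower under the 3 scalings). After centring on the array median 1 fell and 2 rose. P2ry14, a receptor for UDP-sugars, measured 3.58, 4.12 and 4.26 in the controls, against 6.23, 5.78, 6.57 and 6.54 in the other group. It rose by 2.13 (SE 0.25, limma adjusted p = 2.44e-05). The ATP-gated channel P2rx7 rose by 0.81 (SE 0.23). P2ry13 rose by 0.51 (SE 0.21, limma adjusted p = 0.0317), but was above the olfactory reference on 0 arrays, and the call was lost after centring on the median or by quantiles and without 4 of the arrays in turn.

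Among 23 other transmitter and peptide receptors 3 fell and 6 rose, with a median of -0.01, against 4 and 4 after centring on the array median and 4 and 2 after quantile normalization. Gabbr2, a subunit of the GABA-B receptor, which couples to Gi/o, changed by -2.68 (SE 0.22, limma adjusted p = 5.25e-06). The prostaglandin receptor Ptger4 and the cannabinoid receptor Cnr2 rose by 1.19 (SE 0.25) and 1.02 (SE 0.27). Leukocytes are known to express P2rx7, P2ry13, Ptger4 and Cnr2. The mean of 9 leukocyte markers ran from 2.41 to 2.61 in the controls. In the other group it ran from 2.79 on array 4 to 4.21 on array 1. Of the 9 markers 2 rose, which is near the 17.4% of all genes called higher. Other cell types also moved. Of 10 mesenchymal and stellate markers 7 rose, of 8 ductal markers 4 rose and 1 fell, and of 10 endothelial markers 0 rose and 3 fell. The part of leukocytes or of any other cell type in the rises of these receptors was not tested. Of adrenergic receptors besides Adra2a, 2 were measured, and Adra2c rose by 0.55 (SE 0.24, limma adjusted p = 0.0397), a call lost under each of the 3 scalings and without 6 of the 7 arrays in turn. After centring on the array median or by quantiles 1 of these 2 was called lower and 0 higher.

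**Figure D4:**
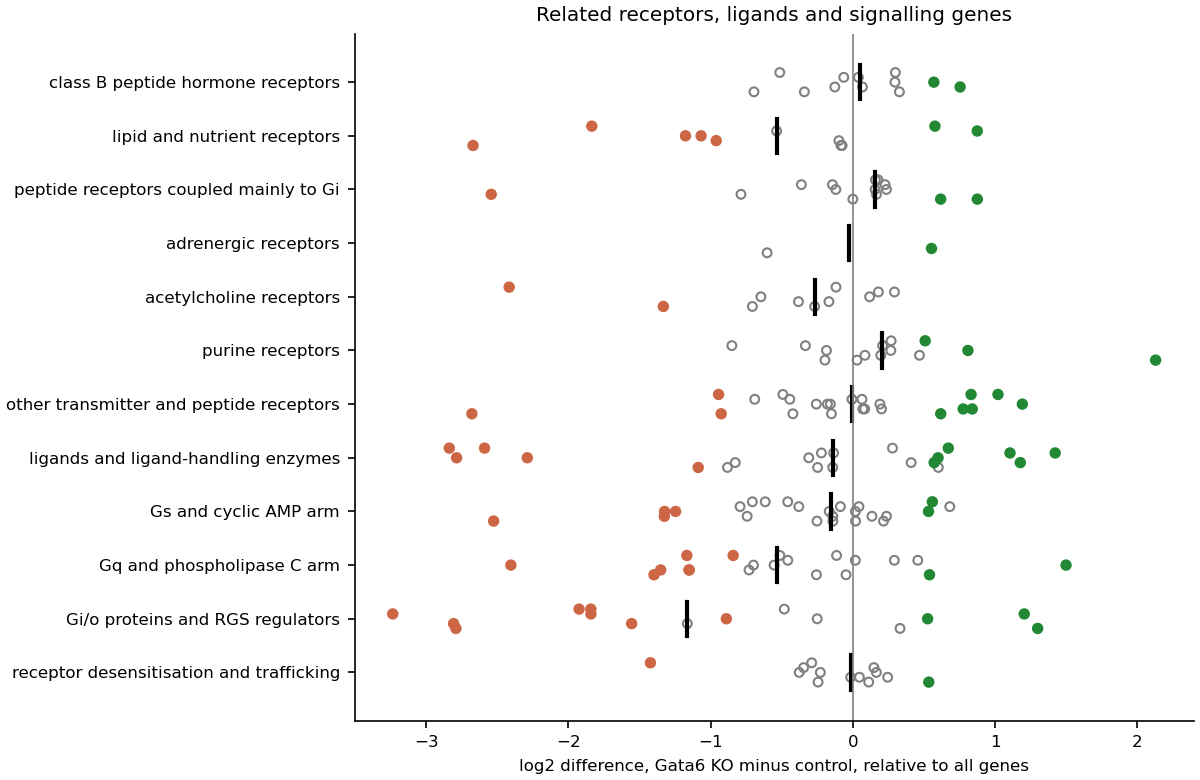
Log2 difference relative to all genes (x axis) of the measured genes of 12 lists (y axis), arrays labelled Gata6 KO minus control. Filled points passed limma's test, in orange when lower and green when higher, open points did not, and black bars are list medians. The Gi/o and RGS list has the lowest median, at -1.16.

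Downstream of the receptors, the list of Gi/o proteins and RGS regulators had the lowest median. It joins alpha subunits with RGS genes, so the median is not that of the Gi/o proteins alone. Of 15 measured G protein and RGS genes 8 fell and 3 rose, with a median of -1.16. Gnao1, the alpha subunit of Go, measured 7.04, 6.80 and 6.23 in the controls, against 3.73, 4.23, 2.96 and 3.57 in the other group. It changed by -3.24 (SE 0.29, limma adjusted p = 9.03e-06). Rgs16 and Rgs2, which speed the shut-off of G protein signals, changed by -2.81 (SE 0.20) and -1.84 (SE 0.19).

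In the Gq arm 7 of 20 measured genes fell and 2 rose, with a median of -0.53. Protein kinase C beta (Prkcb) changed by -2.40 (SE 0.28) and protein kinase D2 (Prkd2) by -1.35 (SE 0.23), while Gna14, an alpha subunit of the Gq family, rose by 1.50 (SE 0.22, limma adjusted p = 1.45e-04). In the Gs and cyclic AMP arm 4 of 24 fell and 2 rose, with a median of -0.15, against 6 and 0 after centring on the array median, 6 and 1 after quantile normalization and 4 and 0 with the olfactory receptor median. The protein kinase A regulatory subunits Prkar1b and Prkar2b changed by -2.53 (SE 0.27) and -1.32 (SE 0.26). Gnas, which encodes the alpha subunit of Gs in a locus of overlapping transcripts that the probe set may not separate, changed by -1.33 (SE 0.22).

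Of 13 measured genes of receptor desensitisation and trafficking 1 fell and 1 rose, with a median of -0.02. The receptor kinase Grk5 changed by -1.42 (SE 0.20, limma adjusted p = 5.59e-04). Arrb1, a beta-arrestin, rose by 0.53 (SE 0.20, limma adjusted p = 0.0197), a call lost after centring on the array median and without control array 1 or 2.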

How the data were processed

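Log2 signals were normalized and summarised per probe set by the authors with RMA, and the table was deposited in that form. The submitters' processing notes name RMA and Transcriptome Analysis Console with no version. For the genome build, the sources used here give nothing. Base 2 is taken from RMA. RMA compresses differences of dim and of near-saturated probe sets, and the number of arrays limits the precision.

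Of 41345 probe sets 23521 had 1 gene symbol in the platform annotation, 1814 had several and 16010 were unnamed here. Per gene the probe set with the highest mean was used. All 22180 genes went into 1 limma fit (limma 3.58.1, R 4.3.3, lmFit, eBayes with trend, no covariate, all 7 arrays, two-sided, Benjamini-Hochberg adjusted p under 0.05). Intervals cover 95%. Exact permutation tests ran over 35 splits. The fit was tested on simulated data. Figures used matplotlib 3.10.9.

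The members and lists were chosen with earlier results of these data known, so counts are read against the background share only. Named genes are the members, 4 ligand genes, up to 3 genes of each list with the smallest p among those called, and the 3 genes most like each member.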

Additional observations from a re-analysis of the deposited data

Results flagged for a closer look

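Among the 4 arrays labelled Gata6 KO, 2 receptor signals stood apart from the other 3 arrays by Dixon's test at its 95% critical value. Ffar1 was lowest at 3.23 on array 3, and Chrm3 was highest at 3.34 on array 1. Chance marks about 1 in 20 groups, and 7 receptors were tried.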

How the results depend on the processing

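Over 22 alternatives the direction of Glp1r, Ffar1, Galr1 and P2ry1 held in each, and their call held in 21. The exception was centring on the pan-endocrine mean, where the differences were -0.19, -0.20, -0.74 and -0.026, and where Gipr (1.00), Gcgr (2.03) and Chrm3 (1.40) reversed. There 3 receptors and 163 list genes passed, all higher, because that scale moves the median of all genes to 2.55. The p-values on that scale are too small, as said above. On the 5 arrays with high Xist the Chrm3 difference was -0.82 and its call was lost. Leaving out each array in turn gave Gipr differences from -1.69 to -1.18. Without control array 1 the list calls numbered 43, in a range from 43 to 63 over the arrays left out, and 39 at an adjusted p under 0.01, against 66. Over all genes 3265 were called without control array 1, 3586 without control array 2, 3337 with high-Xist arrays alone and 2797 at an adjusted p under 0.01, against 5486. Of these calls 70.2% were higher, against 40.3% after centring on the array median and 49.6% after a repeated quantile normalization of the genes. Whether the replicate numbers shared by the titles pair the arrays is not settled. Deviations from the group means of same-numbered arrays correlated at 0.10, 0.004 and 0.11, with no differently numbered arrays set beside them. Xist was low on the array numbered 3 of both groups (1.34 and 2.15). With the replicate number as a block 5921 genes were called, and no receptor call changed. The differences were -2.78 for Glp1r, -1.62 for Gipr, -0.47 for Gcgr, -2.65 for Ffar1, -3.17 for Galr1, -0.93 for Chrm3 and -2.42 for P2ry1. Only 1 array has the number 4, so the block takes it up. These differences equal those without the array labelled Gata6 KO 4. Scanner files and detection calls were not used, so signal over background was judged from olfactory receptor genes alone.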
